A study of Homo sapiens with 12 samples.

Results

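Entinostat gave a higher signal of *VAT1L*, *ENPP5*, *CD24*, *CPM*, *SUSD4* and *STC1* in Hs695T cells, with or without MAPK pathway inhibitors. They are 6 of 14599 genes with a named row, and each had 1 probe set. They were chosen by their measured array intensities, which were higher with entinostat in both settings, so the 2 entinostat comparisons are given below as descriptions without a test. The effects of the MAPK pathway inhibitors were not part of that choice and were tested. Whether they differed with entinostat rests on the same 2 entinostat comparisons, so that test is not independent of the choice.

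Hs695T is a human melanoma cell line, and RNA was hybridised to 12 single-colour arrays after 24 h of treatment, 3 arrays per group. DTE cells received 100 nM dabrafenib (a BRAF inhibitor), 10 nM trametinib (a MEK inhibitor) and 1 µM entinostat, which blocks class I histone deacetylases. E cells received entinostat alone at 1 µM, DT cells received dabrafenib and trametinib alone at 100 nM and 10 nM, and DMSO cells received the vehicle. All groups come from this 1 cell line, and the sources disagree on whether the 3 arrays of a group are biological or technical replicates, so p-values cover only the spread between these arrays.

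Histone deacetylases remove acetyl groups from histone tails, and class I enzymes act in corepressor complexes that keep genes silent. Inhibiting them raises histone acetylation, and some silent or weakly transcribed genes then become active. BRAF and MEK sit above the kinase ERK in the MAPK pathway, which drives growth in many melanomas. The 6 genes differ in what they encode. *ENPP5* and *CPM* encode ectoenzymes of the cell surface, *CD24* and *SUSD4* encode surface proteins with roles in immune recognition, and *STC1* encodes a secreted hormone. *VAT1L* encodes a relative of the vesicle protein VAT1 with a predicted oxidoreductase fold. Whether VAT1L reaches the surface or is secreted was not examined in these data.

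The arrays differed in brightness. Array medians lay between 33.3 and 39.9 intensity units in DTE, 48.3 and 51.6 in E, 37.5 and 40.8 in DT, and 50.6 and 57.6 in DMSO. The median log2 difference over all genes was -0.20 for E against DMSO, -0.23 for DTE against DT, -0.48 for DT against DMSO and -0.54 for DTE against E. Fewer cells, less RNA per cell and differences in how the arrays were handled or scaled cannot be told apart in such bulk RNA. The cause of the shift was not tested. Each result on the MAPK inhibitors is therefore also given after quantile normalization, which brings those 4 medians to -0.04, -0.03, 0.01 and 0.01. The ERK target *SPRY4*, a check of the MAPK inhibitors, averaged 5.06 ± 0.04 in DTE, 9.84 ± 0.25 in E, 5.09 ± 0.08 in DT and 11.17 ± 0.12 in DMSO (log2 intensity, SD, n = 3 each). The neural crest markers *SOX10* and *S100B* averaged 9.96 and 11.49 in DMSO, and *MITF*, *PMEL* and *MLANA* 6.09, 6.07 and 4.27. The pigment enzyme genes *TYR* and *TYRP1* averaged 3.81 and 3.48, and *DCT* had no named row. Of these 7 measured lineage genes, 1 was called higher and 3 lower in E against DMSO and in DTE against DT. In DT against DMSO and in DTE against E 0 were higher and 3 lower. Over all genes 37.2%, 40.6%, 66.2% and 72.6% were called lower. After quantile normalization these lineage counts were 1 and 2, 2 and 3, 2 and 1, and 1 and 2. Of markers of other cells, 2 fibroblast, 3 keratinocyte and 1 leukocyte gene had a named row, and 0 of these passed in E against DMSO. In DT against DMSO *KRT14* was higher and *KRT5* lower on the deposited scale, in DTE against DT *KRT14* was lower, and in DTE against E *KRT5* was lower. Of these only the higher *KRT14* passed after quantile normalization, and the part of such markers in the results was not tested.

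Upstream sequence is shown for the 3 genes with a single start in the RefSeq promoter set of GRCh38.p14, since *VAT1L* fell and *ENPP5* and *SUSD4* rose with dabrafenib and trametinib alone. Each line gives the 250 bases before the listed start, 5′ to 3′ on the gene's strand. The RefSeq gene *SUSD4* reaches chr1:223365235, so its window lies inside the annotated gene, unlike those of *VAT1L* and *ENPP5*. Capitals mark the GC box, searched as GGGCGG on both strands, a motif bound by SP family factors.
VAT1L, chr16:77788314-77788563, plus strand: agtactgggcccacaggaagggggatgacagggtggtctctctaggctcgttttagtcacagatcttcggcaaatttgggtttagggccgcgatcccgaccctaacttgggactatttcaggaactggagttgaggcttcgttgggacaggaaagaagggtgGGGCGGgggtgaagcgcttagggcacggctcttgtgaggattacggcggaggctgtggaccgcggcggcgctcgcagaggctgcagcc
ENPP5, chr6:46170981-46171230, minus strand: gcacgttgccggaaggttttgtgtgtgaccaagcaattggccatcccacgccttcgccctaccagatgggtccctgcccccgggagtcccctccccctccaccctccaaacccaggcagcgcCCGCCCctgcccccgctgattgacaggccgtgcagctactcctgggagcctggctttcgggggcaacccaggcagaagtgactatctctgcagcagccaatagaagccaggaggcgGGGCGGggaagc
SUSD4, chr1:223364177-223364426, minus strand: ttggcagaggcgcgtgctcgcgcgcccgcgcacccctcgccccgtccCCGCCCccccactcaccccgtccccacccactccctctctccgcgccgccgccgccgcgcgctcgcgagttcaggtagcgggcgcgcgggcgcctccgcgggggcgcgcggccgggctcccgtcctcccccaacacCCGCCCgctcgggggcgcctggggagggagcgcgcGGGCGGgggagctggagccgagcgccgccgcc

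The window held 1 GC box for *VAT1L*, 2 for *ENPP5* and 3 for *SUSD4*. Of 35116 such windows in the RefSeq set, 42.6% held at least 1. The windows of *VAT1L*, *ENPP5* and *SUSD4* were 60.0%, 66.0% and 83.6% G or C, with 16, 12 and 45 CpG dinucleotides, against medians of 58.0% and 11 over all windows. *CPM* has 3 listed starts with 5, 6 and 0 GC boxes, and *CD24* has 3 listed starts with 1, 0 and 1. Some windows of each of these genes overlap, so the same box can be counted in more than 1 window. No window was examined for *STC1*. The AP-1 motif TGANTCA and the TATA motif TATAAA, searched on both strands, were in 0 windows of these 5 genes, against 6.57% and 10.7% of all windows. These are matches of letters only.

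*ENPP5* encodes a transmembrane member of the nucleotide pyrophosphatase and phosphodiesterase family, whose enzymes cleave nucleotides and related molecules outside the cell. Its log2 intensity was 7.25, 7.63 and 7.46 on the DTE arrays, 8.26, 8.21 and 8.13 on the E arrays, 5.81, 5.76 and 5.68 on the DT arrays and 4.85, 4.98 and 4.76 on the DMSO arrays. On the deposited scale the order was E, DTE, DT and DMSO, and no neighbouring groups overlapped. After quantile normalization the DTE arrays (7.95 to 8.22) overlapped the E arrays (7.88 to 8.07). With entinostat alone the gene was 10.1-fold higher than in DMSO (log2 difference 3.34 ± 0.11, limma SE), which ranked 2nd of 14599 genes. With entinostat on top of dabrafenib and trametinib it was 3.24-fold higher than in DT (1.70 ± 0.11), rank 38.

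*CPM* encodes carboxypeptidase M, an enzyme held in the membrane by a GPI anchor that removes basic residues from the ends of peptides such as bradykinin. Its log2 intensity was 8.25, 8.35 and 8.31 on the DTE arrays, 8.56, 8.60 and 8.70 on the E arrays, 6.09, 6.17 and 5.95 on the DT arrays and 7.15, 6.95 and 6.80 on the DMSO arrays. On the deposited scale the 4 groups were again separate, but in the order E, DTE, DMSO and DT. After quantile normalization the DTE arrays (8.92 to 8.98) lay above the E arrays (8.35 to 8.47). *CPM* was 3.15-fold higher in E than in DMSO (1.65 ± 0.11, rank 98) and 4.71-fold higher in DTE than in DT (2.23 ± 0.11, rank 8).

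*CD24* encodes a small, heavily glycosylated GPI-anchored protein that binds P-selectin and SIGLEC10, a receptor through which it restrains phagocytes. Its log2 intensity was 10.03, 10.05 and 9.89 on the DTE arrays, 10.10, 10.02 and 10.03 on the E arrays, 7.33, 7.44 and 7.18 on the DT arrays and 7.68, 7.62 and 7.25 on the DMSO arrays. On the deposited scale the arrays formed 2 levels, a high one of DTE and E, which overlapped, and a low one of DT and DMSO, which overlapped too. After quantile normalization the 4 groups were separate. DTE (10.43 to 10.53) then lay above E (9.82 to 9.97), and DT (7.44 to 7.57) above DMSO (6.73 to 7.15). *CD24* was 5.79-fold higher in E than in DMSO (2.53 ± 0.12, rank 18) and 6.37-fold higher in DTE than in DT (2.67 ± 0.12, rank 5). RefSeq lists 5 *CD24* pseudogenes, so the source of its signal is uncertain where probes match them as well.

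*SUSD4* encodes a membrane protein with sushi domains that inhibits complement activation. Its log2 intensity was 6.96, 7.0 and 6.89 on the DTE arrays, 7.10, 7.09 and 6.99 on the E arrays, 5.49, 5.34 and 5.47 on the DT arrays and 4.69, 4.46 and 3.84 on the DMSO arrays. On the deposited scale DTE and E overlapped, DT lay below both, and DMSO lay lowest with the widest spread (SD 0.44). After quantile normalization the DTE arrays (7.59 to 7.66) lay above the E arrays (6.81 to 6.96). *SUSD4* was 6.64-fold higher in E than in DMSO (2.73 ± 0.16, rank 14) and 2.87-fold higher in DTE than in DT (1.52 ± 0.16, rank 59). The table gives no detection call, so it is not known whether the DMSO arrays were above background.

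*STC1* encodes stanniocalcin 1, a secreted glycoprotein hormone of calcium and phosphate balance that also inhibits the protease PAPPA. Its log2 intensity was 8.99, 9.13 and 9.09 on the DTE arrays, 10.97, 11.08 and 11.13 on the E arrays, 6.80, 6.81 and 6.64 on the DT arrays and 8.76, 8.77 and 8.82 on the DMSO arrays. The order was E, DTE, DMSO and DT without overlap, but DTE lay only 0.29 above DMSO on the deposited scale and 1.49 above it after quantile normalization. *STC1* was 4.84-fold higher in E than in DMSO (2.28 ± 0.10, rank 28) and 5.0-fold higher in DTE than in DT (2.32 ± 0.10, rank 7).

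*VAT1L* had a log2 intensity of 8.92, 9.06 and 9.03 on the DTE arrays, 10.31, 10.32 and 10.33 on the E arrays, 5.98, 5.94 and 5.65 on the DT arrays and 7.19, 6.99 and 7.37 on the DMSO arrays. Its order was that of *STC1*, also without overlap, with DTE 1.82 above DMSO. *VAT1L* was 8.79-fold higher in E than in DMSO (3.14 ± 0.12, rank 5) and 8.86-fold higher in DTE than in DT (3.15 ± 0.12, rank 2).

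**Figure D1:**
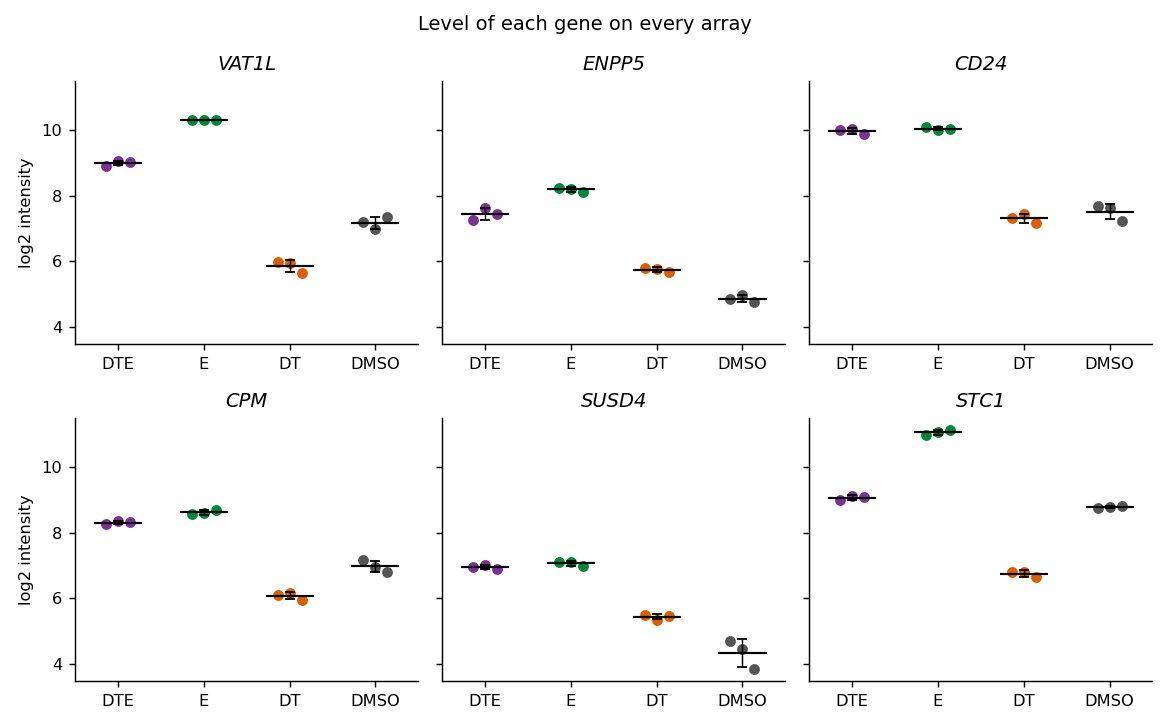
Log2 intensity of the 6 genes on each of the 12 arrays, by group (DTE, E, DT and DMSO). Points are arrays, the long bar is the group mean and the error bar its SD (n = 3). DTE and E lie above DT and DMSO in all 6 genes, with the smallest gap in *STC1*, where the mean is 9.07 in DTE and 8.78 in DMSO.

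All 6 genes had a higher signal in both entinostat comparisons, as the choice required. Over all genes, 10.4% were called higher and 37.2% lower in E against DMSO, 8.68% higher and 40.6% lower in DTE against DT, and 876 genes were called higher in both. The arrays of the 2 groups did not overlap for any of the 6, as for 12.2% of all genes that were higher in E than in DMSO and 9.99% higher in DTE than in DT. A log2 difference of at least 1.5 in both was found for 41 genes, the 6 among them. The median over the 6 was 2.63 in E against DMSO and 2.28 in DTE against DT. After quantile normalization the log2 difference was 1.91 to 3.44 in E against DMSO and 2.02 to 3.57 in DTE against DT. On that scale 18.5% of all genes were called higher and 21.1% lower in E against DMSO, and 19.9% higher and 23.5% lower in DTE against DT.

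**Figure D2:**
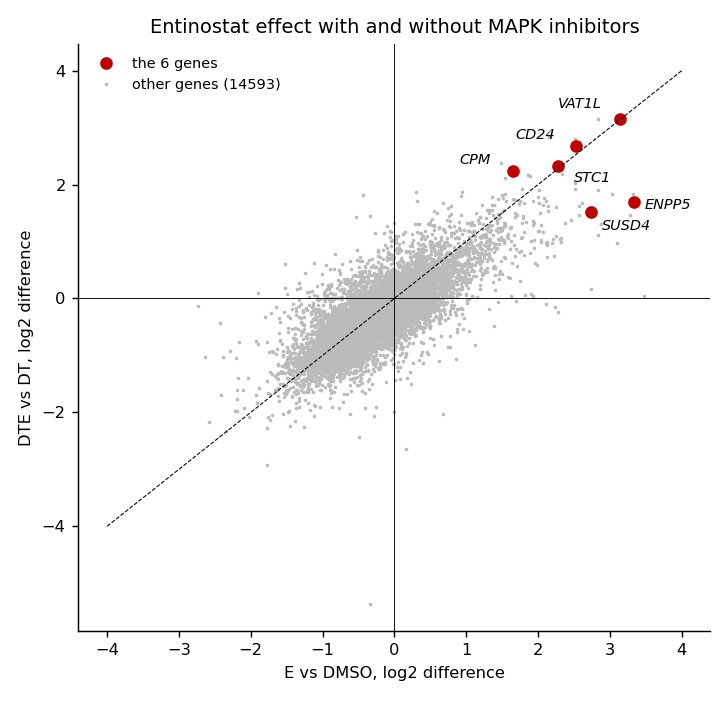
Log2 difference of every gene in E against DMSO (horizontal) and in DTE against DT (vertical). Red points are the 6 genes, grey points the other 14593, and the dashed line marks equal differences. *VAT1L*, *STC1* and *CD24* lie close to the line, *CPM* lies above it, and *ENPP5* and *SUSD4* lie below it.

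Dabrafenib and trametinib without entinostat divided the 6 genes. *STC1*, *VAT1L* and *CPM* fell, *ENPP5* and *SUSD4* rose, and *CD24* did not pass. So 2 of 6 rose and 3 fell in DT against DMSO, where 2.97% of all genes were called higher and 66.2% lower. The arrays were separate for the same 5 genes, as for 3.34% of all genes that were higher and 67.8% that were lower. The median of the 6 was -0.55, beside -0.48 for all genes.

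*STC1* fell 4.10-fold in DT against DMSO (log2 difference -2.03 ± 0.10, adjusted p = 9.8e-11, quantile -1.24). The 1460 brightest genes by mean signal, of which it is 1, had a median of -0.74. *VAT1L* fell 2.51-fold (-1.33 ± 0.12, adjusted p = 9.9e-08, quantile -0.65) and *CPM* fell 1.86-fold (-0.90 ± 0.11, adjusted p = 3e-06, quantile -0.26). With genes split by mean signal into 10 groups, the medians of their groups were -0.78 for *VAT1L* and -0.76 for *CPM*. On the deposited scale the *CPM* fall was thus close to the median of its group. The high DTE and E values that chose the genes helped to set these groups. The groups therefore need not hold genes of like signal in DT and DMSO. Whether *CPM* fell like genes of similar signal in DT and DMSO alone was not tested. All 3 falls passed after quantile normalization (adjusted p = 8.7e-08, 7e-05 and 0.02), where 15.1% of all genes were called higher and 13.9% lower.

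*ENPP5* rose 1.85-fold in DT against DMSO (0.89 ± 0.11, adjusted p = 3.8e-06, quantile 1.24), against the general fall in signal. *SUSD4* rose 2.15-fold (1.10 ± 0.16, adjusted p = 1.6e-05, quantile 1.41), with 3 of 3 DT arrays above all DMSO arrays. *CD24* had a difference of -0.20 ± 0.12 (95% interval -0.45 to 0.06, adjusted p = 0.15), which was 0.53 after quantile normalization (adjusted p = 0.0013) and 0.35 after subtraction of array medians (adjusted p = 0.015). Its sign therefore depended on how the arrays were scaled. With array medians subtracted 26.5% of all genes were called higher and 22.6% lower. Without DMSO replicate 3, where the gene was lowest in its group, the *CD24* difference was -0.33 and passed (adjusted p = 0.021).

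With entinostat present, dabrafenib and trametinib raised 0 of the 6 genes on the deposited scale, and 4 of 6 fell. Over all genes, 0.644% were called higher in DTE against E and 72.6% lower. The DTE arrays lay below all E arrays for those 4 genes, as for 70.9% of all genes, and above them for 0 of 6, against 0.938%. The median of the 6 was -0.53, beside -0.54 for all genes. At an unadjusted p under 0.05 in limma the count of rises was also 0, but after quantile normalization 3 rose and 2 fell, where 11.4% of all genes were called higher and 11.6% lower. With array medians subtracted 3 rose and 2 fell too, beside 22.3% and 22.0% of all genes.

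*STC1* was 3.97-fold lower in DTE than in E (-1.99 ± 0.10, adjusted p = 6.1e-10, quantile -1.21). *VAT1L* was 2.49-fold lower (-1.31 ± 0.12, adjusted p = 1.5e-07, quantile -0.52). These 2 falls held on every scale tried. *ENPP5* fell by 0.75 ± 0.11 (adjusted p = 1.8e-05), but it had 0.15 after quantile normalization without passing (adjusted p = 0.26). On the deposited scale the genes in its group by mean signal had a median of -0.72 in DTE against E, close to its own fall. The medians of the groups of *STC1* and *VAT1L* were -0.83 and -0.89.

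*CPM* fell by 0.32 ± 0.11 in DTE against E (adjusted p = 0.016) and was 0.55 higher after quantile normalization (adjusted p = 0.00024). Without E replicate 3 or DTE replicate 1 it did not pass (-0.28 and -0.29, adjusted p = 0.065 and 0.057). *CD24* had -0.06 ± 0.12 (95% interval -0.32 to 0.19, adjusted p = 0.65) and *SUSD4* had -0.11 ± 0.16 (-0.44 to 0.23, adjusted p = 0.55). After quantile normalization both were higher, by 0.62 (adjusted p = 0.00068) and 0.74 (adjusted p = 0.0019). On the deposited scale the groups by mean signal had medians of -0.81 for *CPM*, -0.83 for *CD24* and -0.52 for *SUSD4*. The difference of each of these genes was thus less negative than the median of its group, and those of *CD24* and *SUSD4* did not pass. The high DTE and E values that chose the genes also set these groups.

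**Figure D3:**
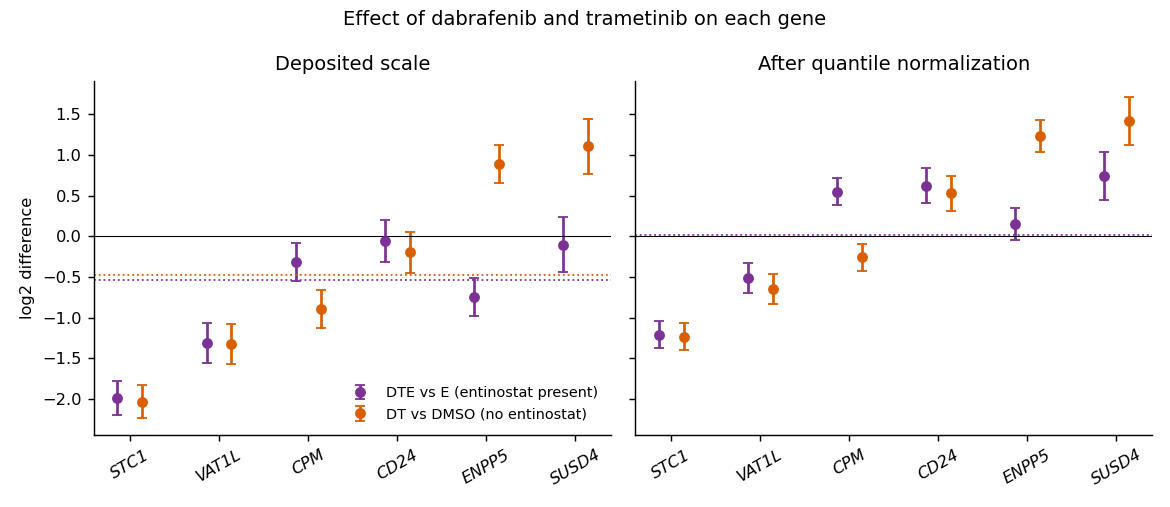
Log2 difference of each gene in DTE against E (purple) and in DT against DMSO (orange), on the deposited scale (left) and after quantile normalization (right). Bars are 95% limma intervals (3 arrays per group) and dotted lines are the medians of all genes. *STC1* and *VAT1L* fall by like amounts in both comparisons, whereas *ENPP5* and *SUSD4* are higher in DT against DMSO (0.89 and 1.10) and lower in DTE against E on the left (-0.75 and -0.11, of which -0.11 did not pass).

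Whether the MAPK inhibitor effect differed in the presence of entinostat was tested as (DTE minus E) minus (DT minus DMSO). The same number is also the difference between the 2 entinostat comparisons. Those 2 comparisons chose the genes, so the interaction is built from values used in the choice. Its p-values for the 6 genes are therefore not independent of how they were chosen. Of the 6 genes 1 had a positive interaction and 2 a negative one, where 3.16% and 4.84% of all genes were called. The same 3 passed after quantile normalization, where 6.21% and 6.26% were called.

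*ENPP5* had an interaction of -1.64 ± 0.16 (adjusted p = 1e-05, quantile -1.08) and *SUSD4* one of -1.21 ± 0.22 (adjusted p = 0.0026, quantile -0.68). Both genes were higher than DMSO after entinostat alone and after dabrafenib and trametinib alone, and the 3 drugs together gave less than the sum of those log2 differences. In DTE, *ENPP5* lay 2.58 and *SUSD4* 2.63 above DMSO. *CPM* had a positive interaction of 0.58 ± 0.15 (adjusted p = 0.028, quantile 0.81). It did not pass when any 1 of 7 arrays was left out (DMSO 1, DT 1, DT 3, E 1, E 2, DTE 2 or DTE 3; 0.49 to 0.59, adjusted p up to 0.073).

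The interaction did not pass for the other 3 genes. It was 0.05 ± 0.14 for *STC1* (95% interval -0.25 to 0.34, adjusted p = 0.9), 0.01 ± 0.17 for *VAT1L* (-0.34 to 0.36, adjusted p = 0.98) and 0.14 ± 0.17 for *CD24* (-0.22 to 0.50, adjusted p = 0.72). Each interval leaves room for a difference of more than 0.3 on the log2 scale. For *STC1* and *VAT1L* the DTE level was thus near the sum of 2 opposite log2 differences, at 9.07 ± 0.07 and 9.0 ± 0.07 (SD, n = 3).

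Relatives and partners of the 6 genes were read from 12 lists with 121 measured genes, the 6 left out. The counts of each list stand beside the shares over all genes. These were 10.4% higher and 37.2% lower in E against DMSO, and 8.68% and 40.6% in DTE against DT. After quantile normalization they were 18.5% and 21.1%, and 19.9% and 23.5%. Of the other 5 measured ENPP genes, 3 passed as higher and 0 as lower in E against DMSO, with a median of 0.72 beside -0.20 for all genes. *ENPP4* rose by 1.73 ± 0.11 (quantile 1.90), *ENPP2*, which encodes the lysophosphatidic acid producing enzyme autotaxin, rose by 1.42 ± 0.14 (quantile 1.53), and *ENPP1* rose by 0.72 ± 0.10 (quantile 1.15). In DTE against DT 2 of 5 rose, *ENPP2* (0.89 ± 0.14) and *ENPP4* (0.82 ± 0.11), while *ENPP1* had 0.07 ± 0.10 but passed after quantile normalization (0.45). Among 7 other genes of nucleotide and NAD enzymes, not all of them surface enzymes, 1 rose in E against DMSO. It was *ENTPD1*, which encodes the ATP-cleaving enzyme CD39 (1.07 ± 0.13). In DTE against DT 3 of the 7 rose and 1 fell.

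Of 4 other carboxypeptidases of the *CPM* family, 1 rose and 1 fell in E against DMSO, beside 10.4% and 37.2% of all genes. *CPE*, a prohormone processing enzyme, rose by 0.85 ± 0.10 (quantile 0.96), and *CPD* fell by 0.32 ± 0.10 without passing after quantile normalization. In DTE against DT the same counts held, with *CPE* at 0.47 ± 0.10 and *CPD* at -0.50 ± 0.10. Of 7 genes of the kinin system, whose peptides carboxypeptidase M trims, 2 rose and 0 fell in both entinostat comparisons. The 2 were the peptidase genes *MME* (1.25 ± 0.12 in E against DMSO, 0.71 ± 0.12 in DTE against DT) and *ECE1* (0.38 ± 0.11 and 0.39 ± 0.11). Over all genes 10.4% and 8.68% were called higher in these comparisons, and 37.2% and 40.6% lower.

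Of 6 other complement regulators 3 rose and 2 fell in E against DMSO, and 3 rose and 1 fell in DTE against DT. Over all genes 10.4% and 8.68% were called higher in these comparisons, and 37.2% and 40.6% lower. *CLU*, which encodes the secreted complement inhibitor and chaperone clusterin, rose by 2.21 ± 0.12 (quantile 2.27) and by 1.05 ± 0.12 (quantile 1.56). *CSMD1* fell by 0.48 ± 0.10 and by 0.60 ± 0.10 in the same comparisons. Of the 8 other sushi domain genes, 0 rose and 2 fell in both comparisons on the deposited scale, with *SUSD5* lowest (-0.96 ± 0.11 and -0.97 ± 0.11). After quantile normalization 1 fell and 0 rose. On either scale the share of these 8 that fell was below that of all genes.

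Among 7 other phagocytosis and T cell checkpoint genes, 2 rose and 2 fell in E against DMSO, and 1 rose and 1 fell in DTE against DT. Over all genes 10.4% and 8.68% were called higher in these comparisons, and 37.2% and 40.6% lower. After quantile normalization 3 rose and 1 fell in E against DMSO, and 3 rose and 0 fell in DTE against DT. *CD274*, which encodes PD-L1, rose by 1.89 ± 0.14 and by 0.81 ± 0.14. *CD47*, which encodes another signal that restrains phagocytes, rose by 0.29 ± 0.11 in E against DMSO and fell by 0.54 ± 0.11 in DTE against DT, the fall without passing after quantile normalization. *PDCD1LG2* fell by 1.07 ± 0.14 in E against DMSO. *SIGLEC10*, the CD24 receptor gene, did not pass in either.

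Of 10 genes around *STC1* in the IGF binding protein axis, 2 rose and 3 fell in E against DMSO (3 and 1 after quantile normalization). In DTE against DT 3 rose and 2 fell, and 7 rose and 1 fell after quantile normalization. Over all genes 10.4% and 8.68% were called higher in these comparisons, and 37.2% and 40.6% lower. *STC2*, the paralogue of *STC1*, rose by 0.49 ± 0.13 in E against DMSO and had 0.13 ± 0.13 in DTE against DT. In DT against DMSO 1 of these 10 rose and 8 fell, where 2.97% of all genes were called higher and 66.2% lower, and after quantile normalization 2 rose and 3 fell. *IGFBP3* fell by 2.27 ± 0.10 (quantile -1.54) and *IGFBP5* rose by 1.74 ± 0.11 (quantile 2.48). *PAPPA* had no named row.

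Of 6 relatives of *VAT1L*, 1 rose and 4 fell in E against DMSO, and 0 rose and 5 fell in DTE against DT. Over all genes 37.2% and 40.6% were called lower in these comparisons, and 10.4% and 8.68% higher. After quantile normalization 2 rose and 3 fell, and 1 rose and 3 fell, beside 21.1% and 23.5% of all genes called lower. *VAT1* itself fell by 0.59 ± 0.13 and 0.54 ± 0.13, and neither passed after quantile normalization (-0.17 and -0.07). *PTGR3* fell most in E against DMSO (-1.20 ± 0.12, quantile -0.78). *PTGR1* rose by 0.52 ± 0.12 in E against DMSO (quantile 0.85), and in DTE against DT it had 0.16 ± 0.12 but passed after quantile normalization (0.65).

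*CD24* and *CPM* share a GPI anchor, and 41 other genes of GPI-anchored proteins were measured. In E against DMSO 14 rose and 10 fell (median 0.07), and in DTE against DT 13 rose and 6 fell (median 0.09), beside -0.20 and -0.23 for all genes, of which 10.4% were called higher and 37.2% lower in E against DMSO and 8.68% and 40.6% in DTE against DT. After quantile normalization 18 rose and 6 fell in E against DMSO, and 21 rose and 1 fell in DTE against DT, beside 18.5% higher and 21.1% lower and 19.9% higher and 23.5% lower of all genes. *CNTN1*, an axonal adhesion gene, rose by 1.61 ± 0.10 and 0.35 ± 0.10, and *ULBP3*, a ligand gene of the receptor NKG2D, rose by 1.36 ± 0.12 and 1.79 ± 0.12. *EFNA5* fell by 1.33 ± 0.12 in E against DMSO (quantile -0.90), whereas in DTE against DT it had 0.27 ± 0.12 without passing and 0.47 after quantile normalization, which passed (adjusted p = 0.0042). Its interaction was 1.60 (adjusted p = 1.7e-05). The 5 measured genes of GPI anchor synthesis all fell in E against DMSO on the deposited scale (median -0.58), and 2 fell after quantile normalization.

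The genes of the class I histone deacetylases, which entinostat blocks, were not themselves raised on the deposited scale. In E against DMSO *HDAC2* was lower (-0.39 ± 0.11, quantile -0.06 without passing), and *HDAC1*, *HDAC3* and *HDAC8* did not pass. In DTE against DT *HDAC2* (-0.43 ± 0.11) and *HDAC8* (-0.67 ± 0.14) were lower, and *HDAC1* and *HDAC3* did not pass. After quantile normalization of that comparison *HDAC8* was still lower (-0.31), *HDAC2* did not pass (-0.09), and *HDAC1* and *HDAC3* were higher (0.27 and 0.55). Together with the genes of their partners, 16 were measured. Of these 0 rose and 11 fell in E against DMSO, and 0 rose and 10 fell in DTE against DT. Over all genes 37.2% and 40.6% were called lower in these comparisons. After quantile normalization 4 rose and 6 fell, and 6 rose and 7 fell. On that scale 18.5% of all genes were called higher and 21.1% lower, and 19.9% higher and 23.5% lower. *HDAC1* had 0.00 ± 0.10 in E against DMSO and *HDAC3* -0.12 ± 0.10, which were 0.40 and 0.29 after quantile normalization and passed there. *REST*, which encodes a repressor of neuronal genes that recruits deacetylases, fell by 1.33 ± 0.11 in E against DMSO (quantile -0.90) and by 1.76 ± 0.11 in DTE against DT (quantile -1.31).

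**Figure D4:**
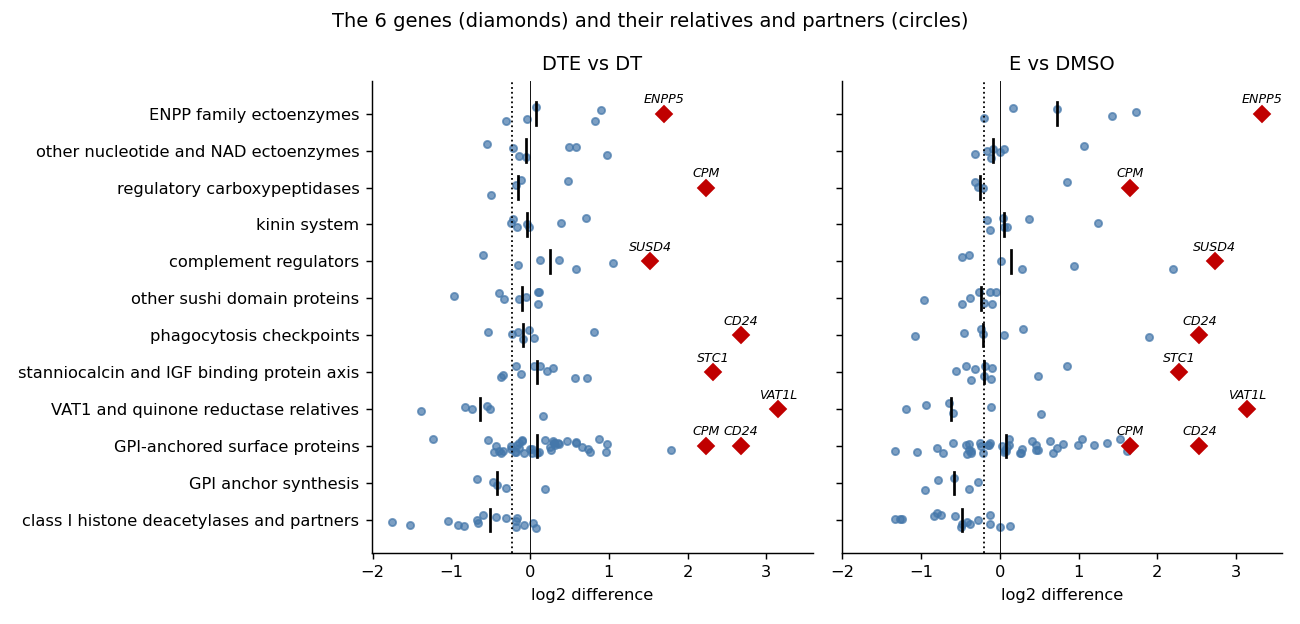
Log2 difference on the deposited scale in DTE against DT (left) and E against DMSO (right) for 12 lists. Circles are single genes, the black bar is the list's median without the 6 genes, red diamonds are the 6 genes, and the dotted line is the median of all genes. In each list that holds one of the 6 genes, that gene lies right of the list's median, as it was chosen to be high.

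The genes most like each of the 6 were taken by Pearson's r of log2 intensity over the 12 arrays, among 6319 other genes whose group means spanned at least 1. The arrays share their treatments, so r describes a shape and is given without a test. *STC1* was most like *MET*, a receptor tyrosine kinase gene (0.996), *TES* (0.995) and *ISOC1* (0.994). *VAT1L* was most like the NAD synthesis gene *NMNAT2* (0.997), *HSPA4L* (0.994) and *SNAR-B1* (0.993). *CPM* was most like *SNAR-B1* (0.991), *AXIN2* (0.985) and *SNAR-C1* (0.985), and the SNAR genes are near-identical copies whose signals may not be separate.

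*MET* shared the order of *STC1*, with means of 7.11 in DTE, 8.64 in E, 4.95 in DT and 6.78 in DMSO. *CD24* was most like *FGF9*, a growth factor gene (0.992), the endocytic receptor gene *LRP2* (0.989) and the complement receptor gene *CR2* (0.989). *FGF9* had means of 6.20 in DTE, 6.27 in E, 4.52 in DT and 4.47 in DMSO. *ENPP5* was most like *PDGFRL* (0.995), the calretinin gene *CALB2* (0.993) and *RCAN2* (0.989). *SUSD4* was most like *EDIL3* (0.986), *CLU* (0.985) and the neuregulin receptor gene *ERBB4* (0.971), and *CLU* had means of 7.57 in DTE, 7.82 in E, 6.51 in DT and 5.62 in DMSO.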

How the data were processed

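Values came from a deposited matrix of 29592 probe set rows by 12 arrays, each an intensity. The submitters' processing notes name RMA and Transcriptome Analysis Console, with no order or role. How the authors scaled the arrays, whether the ERCC spike-ins served for that, and the genome build are not given in the sources. The values were taken as linear, and log2 of each was computed. A probe table named 14783 rows, all matched by gene identifier to the RefSeq table of GRCh38.p14, which was used for names and promoters. This gave 14599 genes, with the brightest row kept for the 169 genes with several. The number of arrays limits the precision.

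Group means were fitted to all 12 arrays with limma 3.58.1 (R 4.3.3) and contrasts were moderated by eBayes. Adjusted p is Benjamini-Hochberg over all genes, and a gene passed under 0.05. The fit was tested on simulated data. The alternatives were quantile normalization, array median subtraction, removal of the dimmest 40% of genes, trend and robust variance, the mean of a gene's rows, all rows, the compared arrays alone, the replicate number as a block, and leaving out each array.

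The 6 genes and the lists were chosen with earlier results of these data known, so no p was adjusted over a list alone. Named genes were the 6, the largest rise and fall or closest relatives in each list, the 3 genes most like each of the 6, and treatment and cell markers. *SIGLEC10*, *ECE1* and *HDAC8* were named after their values were seen. Arrays of the same number were not taken as paired: after group means were removed their r across genes was -0.106 to 0.121, so the block is an alternative only. Figures used matplotlib 3.10.9.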

Additional observations from a re-analysis of the deposited data

Results flagged for a closer look

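For 3 of the 6 genes the effect of dabrafenib and trametinib differed between cells with and without entinostat by the limma interaction test. That test is built from the comparisons that chose the genes, so its p-values are not independent of the choice. *ENPP5* had an interaction of -1.64 on the log2 scale (adjusted p = 1e-05), with -0.75 in DTE against E and 0.89 in DT against DMSO. *SUSD4* had an interaction of -1.21 (adjusted p = 0.0026), with -0.11 in DTE against E, which did not pass, and 1.10 in DT against DMSO. *CPM* had an interaction of 0.58 (adjusted p = 0.028), with -0.32 in DTE against E and -0.90 in DT against DMSO. The *CPM* interaction did not pass when any 1 of 7 arrays was left out. These values are on the deposited scale. After quantile normalization the difference in DTE against E was 0.55 for *CPM*, 0.74 for *SUSD4* and 0.15 for *ENPP5*, the last without passing. Of all genes 4.84% had a negative and 3.16% a positive interaction that passed. Groups of 3 arrays are too small for a check of single arrays that stand apart.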

How the results depend on the processing

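The 6 genes were compared under each alternative for DTE against E, DT against DMSO and the interaction. Quantile normalization reversed *CD24* (0.53), in DT against DMSO, and *ENPP5* (0.15), *CD24* (0.62), *CPM* (0.55) and *SUSD4* (0.74) in DTE against E. Array median subtraction reversed *CD24* (0.35) in DT against DMSO and *CD24* (0.53), *CPM* (0.28) and *SUSD4* (0.49) in DTE against E, where *ENPP5* had -0.16 and no longer passed. These 2 scalings remove the general shift by construction. In the interaction, *VAT1L* changed sign without DMSO 3 (-0.08), DT 3 (-0.0921), DTE 2 (-0.0168) or DTE 3 (-0.0010), and *STC1* without DT 3 (-0.0095), none passing. Leaving out each array in turn gave *STC1* -2.06 to -1.98, *VAT1L* -1.42 to -1.22, *CPM* -0.98 to -0.81, *CD24* -0.33 to -0.12, *ENPP5* 0.83 to 0.94 and *SUSD4* 0.86 to 1.28 in DT against DMSO. In DTE against E it gave *STC1* -2.03 to -1.95, *VAT1L* -1.34 to -1.27, *CPM* -0.35 to -0.28, *CD24* -0.09 to -0.01, *ENPP5* -0.84 to -0.66 and *SUSD4* -0.14 to -0.08. The interaction ranged from -1.73 to -1.54 for *ENPP5*, -1.39 to -0.96 for *SUSD4*, 0.49 to 0.67 for *CPM*, 0.06 to 0.27 for *CD24*, -0.0921 to 0.1079 for *VAT1L* and -0.0095 to 0.0867 for *STC1*. *CD24* passed in DT against DMSO without DMSO 3. *CPM* lost its call in DTE against E without E 3 or DTE 1, and in the interaction without any of the 7 arrays named above.

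Over all genes the number called was 6937 in E against DMSO, 7200 in DTE against DT, 10094 in DT against DMSO, 10696 in DTE against E and 1168 in the interaction. Testing all rows gave 10971, 11552, 16911 and 18241 in the first 4, with more rows tested. Quantile normalization gave 4233 in DT against DMSO, 3364 in DTE against E and 1821 in the interaction. Array median subtraction gave 6473 in DTE against E and 1769 in the interaction. With the replicate number as a block, 10217 genes were called in DT against DMSO and 1159 in the interaction, and the block changed no call for the 6 genes. Of 12 arrays 9 correlated best with arrays of their own number, which is a hint from the data and not from the design. The signal over background of the dim DMSO values of *SUSD4* and *ENPP5* is not known.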

Other observations

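Besides the 6 genes, 35 others had a log2 difference of at least 1.5 both in E against DMSO and in DTE against DT, and those named here were chosen after their values were seen. They include the complement genes *C3* (1.74 and 1.66) and *CR2* (1.89 and 2.15), the KIT ligand gene *KITLG* (2.09 and 1.77), the Notch ligand gene *JAG1* (2.01 and 1.68), the tight junction gene *OCLN* (2.57 and 1.62), the heparanase gene *HPSE* (2.25 and 1.60) and the somatostatin receptor gene *SSTR2* (2.02 and 1.90). In DT against DMSO 3 of the 35 were called higher and 24 lower, beside 2.97% and 66.2% of all genes, with a median of -0.44 (quantile -0.10) beside -0.48 for all genes. In DTE against E 1 was called higher and 30 lower, beside 0.644% and 72.6% of all genes, with a median of -0.78 (quantile 0.04) beside -0.54 for all genes.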
